A study of Mus musculus with 2 samples.

Results

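The cytochrome P450 genes were examined for H2AZ, a variant of histone H2A, in progenitor cells of the embryonic mouse brain. They were taken as the protein-coding genes of GRCm38 whose symbol is Cyp followed by a number, 1 letter and a number, which gave 92 of 21774 protein-coding genes in 16 families. The largest group, 71 genes, belonged to families 2, 3 and 4, and the other 21 genes were 3 retinoid genes of family 26, 14 genes of sterol and steroid metabolism, and 4 genes of families 1 and 20. Symbols of another form, such as Cyp51 or the paralogues Cyp4a12a and Cyp3a41a with a closing letter, were not members.

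The series held 2 libraries from C57BL/6 brain at embryonic day 13, an H2AZ chromatin immunoprecipitation (ChIP-seq) and an input. Both came from cells described as neural progenitors, with no genetic change or treatment in the labels. The deposited values were 1 list of peaks, of which 21546 were used, each with a position and a score deposited by the authors. Since each group was a single library, nothing could be checked between replicates and no test was made. Shares are given with 95% exact (Clopper-Pearson) intervals that cover counting error only. These intervals treat genes as independent, which related genes of 1 cluster are not. Read depth was unknown, and the list was a part of a longer one, so a gene described as without a peak may have had one there.

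P450 enzymes are haem-containing monooxygenases that insert an oxygen atom into their substrate, with electrons passed on by a reductase or a ferredoxin. Families 2, 3 and 4 hold most of the enzymes that clear drugs and fatty acids in the liver, and in rodents many of them stand in tandem clusters of near-identical copies. Family 26 degrades retinoic acid, which shapes the early brain, and other families build or break down bile acids, steroid hormones, vitamin D and brain cholesterol. H2AZ takes the place of the usual H2A in some nucleosomes and is best known from nucleosomes beside the start of genes.

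A smaller share of Cyp genes than of all protein-coding genes had an H2AZ peak at an end. A peak within 1 kb of either end of the gene, called an end peak here, was listed at 24 of 92 Cyp genes (26.1%, interval 17.5 to 36.3%), against 55.4% of all protein-coding genes. A further 7 members held a peak only inside the gene (7.61%, against 5.74% of all genes), and 61 had neither. Counting both kinds, 33.7% of Cyp genes had a peak (interval 24.2 to 44.3%), against 61.1% of all genes. End peaks that scored 11.9 (the median of the list) or more were found at 18 members (19.6%), against 44.4% of all genes. Among genes with no other protein-coding gene end within 2 kb, the shares were 25% of 84 Cyp genes and 47.5% of all such genes. These are counts from 1 list, and no test was made of the differences.

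The families did not share this equally. End peaks were listed at 16 of 71 genes of families 2, 3 and 4 (22.5%, interval 13.5 to 34%) and at 8 of 21 genes of the retinoid, sterol and other families (38.1%, interval 18.1 to 61.6%). The intervals of the 2 groups overlapped. By peaks within 1 kb of a listed start the counts were 9 of 59 genes of families 2, 3 and 4 (15.3%, interval 7.22 to 26.99%) and 8 of 13 of the retinoid, sterol and other families (61.5%, interval 31.6 to 86.1%), against 55.3% of all protein-coding genes with a listed start. Those intervals did not overlap, but they treat genes of a tandem cluster as independent, and the difference was not tested. By this count the retinoid, sterol and other families lay above all genes, but their interval held the value of all genes. The 13 leave out, for want of a listed start, Cyp7a1, Cyp11b1, Cyp11b2, Cyp17a1, Cyp21a1 and Cyp24a1, which had no peak. Also left out were Cyp7b1 and Cyp39a1, which had an end peak. Cyp1a1 and Cyp19a1 count among the 8 of 13 by peaks that are not end peaks. Of the 16 genes of families 2, 3 and 4 with an end peak, 8 were of 1 subfamily, Cyp4f, where 8 of 9 genes had one (88.9%, interval 51.8 to 99.7%). Without Cyp4f the count in families 2, 3 and 4 was 8 of 62 (12.9%, interval 5.74 to 23.9%). Cyp4f was set apart for its high count, so a lower share without it follows from that choice. Family 3 had none at any of its 7 genes, and family 2 had 6 among 47.

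**Figure D1:**
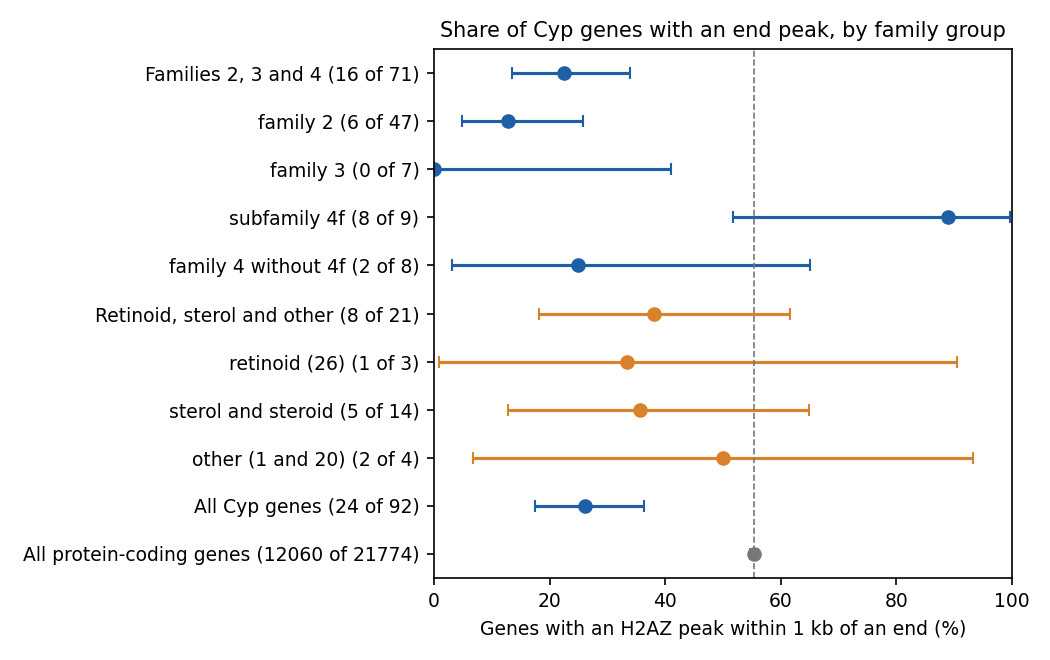
Share of genes with an H2AZ peak within 1 kb of either gene end, in percent, by P450 family group (points, with 95% exact intervals as bars and counts beside each name); the dashed line is the 55.4% of all protein-coding genes. Cyp4f, with 8 of 9 genes, lies to the right of the line, and families 2 and 3 lie to the left of it.

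Where peaks were listed, their median score was close to that of other genes. The highest end peak of the 24 genes had a median score of 16.5 (quartiles 13.03 and 18.7, range 5.97 to 30.1), against 17.1 over all protein-coding genes with an end peak (quartiles 12.9 and 21.3). The median was 16.7 for families 2, 3 and 4 and 15.7 for the retinoid, sterol and other families. The 30 end peaks had a median width of 1879 bp, and the 12 inside peaks had a median width of 1648 bp and a median score of 9.4. The score is the authors' own value and ranks peaks within this list only.

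**Figure D2:**
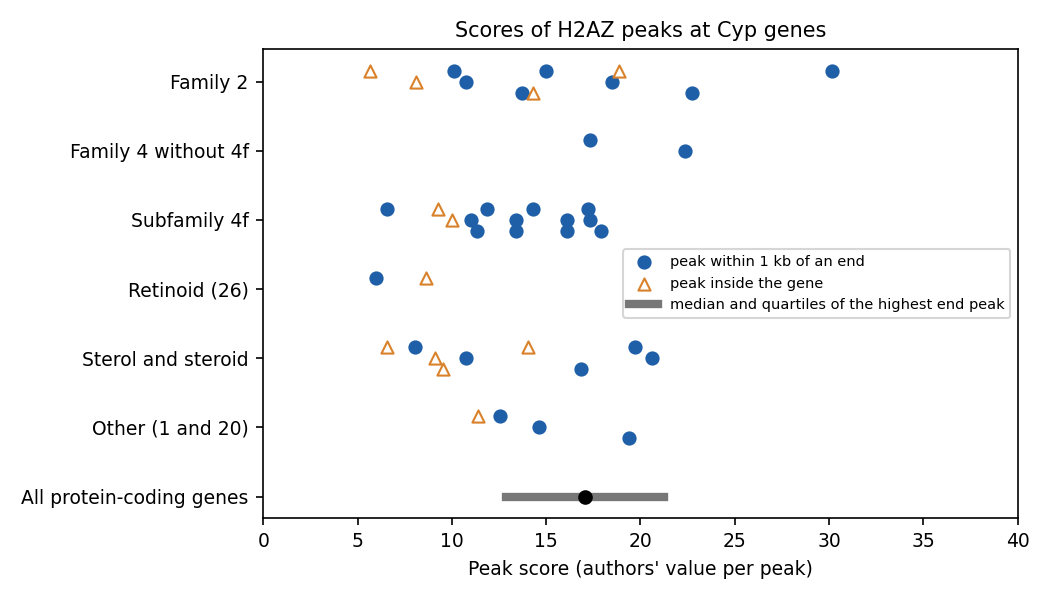
Score of every listed peak at a Cyp gene, by family group, with filled circles for peaks within 1 kb of a gene end, open triangles for peaks inside the gene, and a grey bar with a black point for the quartiles and the median (17.1) of the highest end peak over all protein-coding genes with one. The highest score, 30.1, is at Cyp2r1 in family 2.

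Sequences of 7 promoters are given as examples. RefSeq gave a start and a promoter of 300 bases, from 250 before to 50 after the start, for 72 of the 92 members on GRCm38.p6. The 7 shown were picked after their values were seen. They are Cyp2r1, with the highest score of the family, Cyp26a1 and Cyp26b1, retinoid genes with and without a peak at the start, Cyp2c29 and Cyp3a11, from clusters with no peak, and Cyp4f13 and Cyp4f15, with and without a peak at the start. Capitals mark CpG dinucleotides, the TATA box letters TATAAA and the nuclear receptor half-site AGGTCA, the last 2 on either strand.
Cyp2r1 (chr7:114562923-114563222, minus strand): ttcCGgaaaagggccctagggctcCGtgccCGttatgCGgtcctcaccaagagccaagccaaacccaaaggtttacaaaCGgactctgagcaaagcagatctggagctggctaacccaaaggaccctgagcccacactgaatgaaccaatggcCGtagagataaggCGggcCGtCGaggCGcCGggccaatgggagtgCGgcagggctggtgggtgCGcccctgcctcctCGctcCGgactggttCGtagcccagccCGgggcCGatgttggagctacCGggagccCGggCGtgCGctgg
Cyp26a1 (chr19:37697558-37697857, plus strand): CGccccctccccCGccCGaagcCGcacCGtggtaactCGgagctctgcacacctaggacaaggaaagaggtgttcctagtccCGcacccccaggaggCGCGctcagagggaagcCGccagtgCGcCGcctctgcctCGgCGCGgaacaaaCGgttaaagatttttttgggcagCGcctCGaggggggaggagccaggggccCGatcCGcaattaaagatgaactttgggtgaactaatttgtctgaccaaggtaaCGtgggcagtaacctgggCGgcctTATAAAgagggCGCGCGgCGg
Cyp26b1 (chr6:84593761-84594060, minus strand): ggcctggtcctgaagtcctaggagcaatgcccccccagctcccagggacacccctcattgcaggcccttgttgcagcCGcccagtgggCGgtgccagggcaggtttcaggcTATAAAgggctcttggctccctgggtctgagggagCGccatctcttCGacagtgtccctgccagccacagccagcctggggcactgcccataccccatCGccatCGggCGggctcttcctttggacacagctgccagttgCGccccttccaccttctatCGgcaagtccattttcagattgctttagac
Cyp2c29 (chr19:39286835-39287134, plus strand): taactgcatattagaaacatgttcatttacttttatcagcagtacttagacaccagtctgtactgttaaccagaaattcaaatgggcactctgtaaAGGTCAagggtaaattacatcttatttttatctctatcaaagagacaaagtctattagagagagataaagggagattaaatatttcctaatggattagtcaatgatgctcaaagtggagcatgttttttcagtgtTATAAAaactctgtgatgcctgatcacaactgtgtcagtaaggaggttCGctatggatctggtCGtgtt
Cyp3a11 (chr5:145879805-145880104, minus strand): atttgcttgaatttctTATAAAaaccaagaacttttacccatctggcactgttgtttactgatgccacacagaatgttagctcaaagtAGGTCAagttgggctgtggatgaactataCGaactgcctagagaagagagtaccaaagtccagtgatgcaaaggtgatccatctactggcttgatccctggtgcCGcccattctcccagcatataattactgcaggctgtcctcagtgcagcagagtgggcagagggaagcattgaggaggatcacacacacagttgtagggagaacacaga
Cyp4f13 (chr17:32947312-32947611, minus strand): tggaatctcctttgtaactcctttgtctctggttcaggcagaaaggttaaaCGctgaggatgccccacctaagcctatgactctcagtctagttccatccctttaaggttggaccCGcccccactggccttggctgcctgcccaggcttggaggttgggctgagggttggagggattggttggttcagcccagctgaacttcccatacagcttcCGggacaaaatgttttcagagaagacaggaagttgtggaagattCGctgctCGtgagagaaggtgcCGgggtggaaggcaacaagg
Cyp4f15 (chr17:32685409-32685708, plus strand): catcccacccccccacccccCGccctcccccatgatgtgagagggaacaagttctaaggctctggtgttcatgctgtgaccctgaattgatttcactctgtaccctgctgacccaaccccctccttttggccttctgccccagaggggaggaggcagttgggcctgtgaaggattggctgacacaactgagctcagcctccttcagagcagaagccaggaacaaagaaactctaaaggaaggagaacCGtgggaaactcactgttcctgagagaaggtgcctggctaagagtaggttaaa
The promoter of Cyp2r1 held 22 CpG and that of Cyp26a1 held 26, those of Cyp26b1 and Cyp4f13 held 9 and 6, and those of Cyp2c29, Cyp3a11 and Cyp4f15 held 2 each.

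Cyp promoters were poor in CpG, and those with a start peak held more CpG than those without. A peak within 1 kb of a listed start was found at 17 of 72 Cyp genes (23.6%), against 55.3% of the 17492 protein-coding genes with a listed start. The median CpG count was 10 in the 17 Cyp promoters with a start peak (range 2 to 31) and 2 in the 55 without (range 0 to 9). It was 21 and 3 in all protein-coding promoters with and without one. CpG was counted in the most upstream promoter, and the start peak of Cyp19a1, 1 of the 17, lay at another listed start. By end peaks the medians were 8.5 CpG in 18 members with one and 2 in 54 without. Of the 72 members 75% had at most 4 CpG, against 29.1% of all promoters. In that class 4 of 54 Cyp genes had a start peak (7.41%, interval 2.06 to 17.9%), against 8.77% of all such genes. The 4 were Cyp4f16, with 2 CpG, and Cyp1a1, Cyp2j6 and Cyp2j13, with 4 each. With 5 to 9 CpG the counts were 4 of 9 Cyp genes (44.4%) and 41.2% of all such genes. All 5 members with 10 to 19 CpG and all 4 with 20 or more had one, against 79.9% and 83.8% of all such genes. Across these classes the Cyp intervals held the value of all genes, though with 9 or fewer members in 3 classes they were wide.

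**Figure D3:**
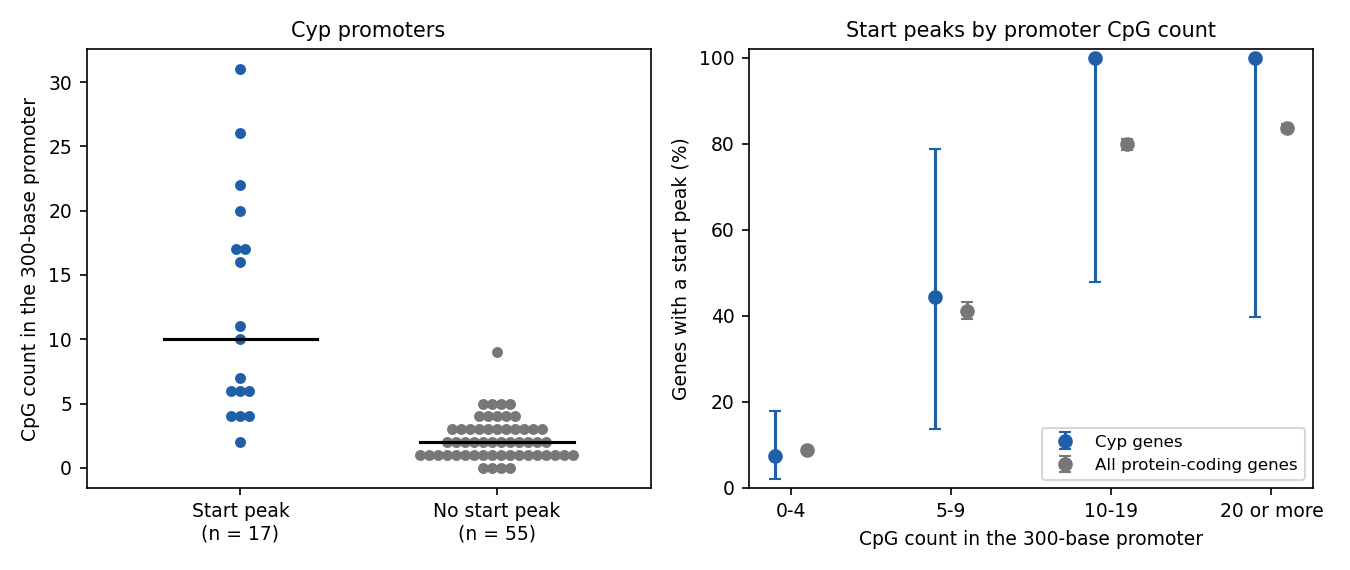
CpG count of 72 Cyp promoters of 300 bases with and without a start peak (left, points are genes and lines are medians of 10 and 2), and the share of genes with a start peak by CpG count for Cyp genes and for all protein-coding genes (right, bars are 95% exact intervals). In the lowest class the shares are 7.41% for Cyp genes and 8.77% for all genes.

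Short motifs were counted in the same promoters. TATAAA, searched on both strands, was in 40.3% of the 72 Cyp promoters and in 13.3% of all. The half-site AGGTCA is read by several nuclear receptors that act on P450 genes. It was in 19 of 59 promoters of families 2, 3 and 4 (32.2%, interval 20.6 to 45.6%), against 14.5% of all. In the other families it was in 1 of 13, that of Cyp19a1. Some of the 19 share long runs of bases, as Cyp2b13 with Cyp2b9 and Cyp2a4 with Cyp2a5, so they are not independent. By start peaks AGGTCA was in the promoters of 1 of 17 Cyp genes with one (5.88%, interval 0.149 to 28.7%) and 19 of 55 without (34.5%, interval 22.2 to 48.6%). Over all genes with and without one the shares were 11.1% and 18.6%. The 1 was Cyp19a1, whose start peak lay at a listed start other than that of the promoter read. GGGCGG, a GC box that itself holds a CpG, was in 23.6% of Cyp promoters and 46.3% of all, and GCGTG, the core of the Ah receptor site and also holding a CpG, was in 20.8% and 38.5%. CCAAT was in 45.8% and 39.2%, and the E box CACGTG in 2.78% and 7.91%. Direct repeats of AGGTCA spaced by 1, 2, 4 or 5 bases were in none of the 72. A missing match says only that these letters are not in this window.

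Stretches shared between promoters were also counted. An exact run of at least 36 bases was shared with the promoter of another gene by 25 of 72 Cyp promoters (34.7%), against 11.8% of all. These were 2 of 18 members with an end peak and 23 of 54 without. The longest runs were 196 bases between Cyp2b13 and Cyp2b9, 143 bases between Cyp2c40 and Cyp2c69, and 111 bases between Cyp2a4 and Cyp2a5. Among the 47 members without such a run, 16 had an end peak (34.04%, interval 20.9 to 49.3%), against 61.2% of all genes without one. The sources used here do not state how reads from shared stretches were placed, and its part in the counts was not tested.

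Cyp4f was the subfamily with the most peaks, and they lay mainly at the far end of the gene. Cyp4f enzymes are omega-hydroxylases of fatty acids and of inflammatory lipids such as leukotrienes. All 9 genes had a peak at an end or inside. Of the 8 with a listed start, 7 had one at the far end that did not reach a start (87.5%, interval 47.3 to 99.7%). Such far-end peaks were found at 5.49% of all protein-coding genes with a listed start, and at 2.22% of those with no other gene end within 2 kb. Outside Cyp4f 1 of 64 Cyp genes had one, Cyp2s1. The 7 far-end peaks scored 11.04 to 17.9 with a median of 13.4. The 961 genes of the 5.49% had a median of 13.5, and the 262 genes of the 2.22% had a median of 10.6. Every midpoint of the 7 lay inside its gene, 171 to 794 bp from the far end, and no other protein-coding gene end lay within 2 kb of either end of these genes. The 7 are related genes, so their peaks are not independent. The sequence under the far-end peaks was not read, and whether it is shared between the genes was not tested.

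In detail, Cyp4f39, whose human counterpart serves ceramide synthesis in skin, had a start peak of score 14.3, a far-end peak of 11.04 and an inside peak of 9.25. Cyp4f16 had 6.56 at the start and 13.4 at the far end, and Cyp4f13 had 16.1 at both. Far-end peaks alone were listed at Cyp4f37 (17.9), Cyp4f40 (11.3), Cyp4f15 (11.9) and, on chromosome 8 away from the cluster, Cyp4f18 (17.3), which acts on leukotrienes in neutrophils. The start was thus without a peak in 4 of these 7 genes. Cyp4f17, for which no start was read, had 17.2 at its lower end and 13.4 near its upper end. Cyp4f14 had a single peak of 10.01 inside, 2202 bp from its far end. The promoters of 8 Cyp4f genes held a median of 2.5 CpG (range 1 to 11), and Cyp4f16 and Cyp4f37 shared a run of 74 bases there.

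The Cyp4f cluster on chromosome 17 (32452697 to 32947415) held 20 peaks in 0.495 Mb, or 40.4 per Mb, against 8.1 per Mb over all chromosomes. Not all of the 20 were at Cyp4f genes, since 4 zinc finger genes within the cluster also had end peaks. Of 5331 windows of 500 kb, 94 held 20 or more peaks and 26.5% held none, and the median was 2. The Cyp2c cluster on chromosome 19 (39006940 to 40187286) was the opposite case. Its 14 genes lay over 1.18 Mb with no peak, inside a stretch without peaks of 1.31 Mb, the 226th longest of 21525 such stretches. The Cyp2c enzymes clear drugs and make epoxides of arachidonic acid.

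**Figure D4:**
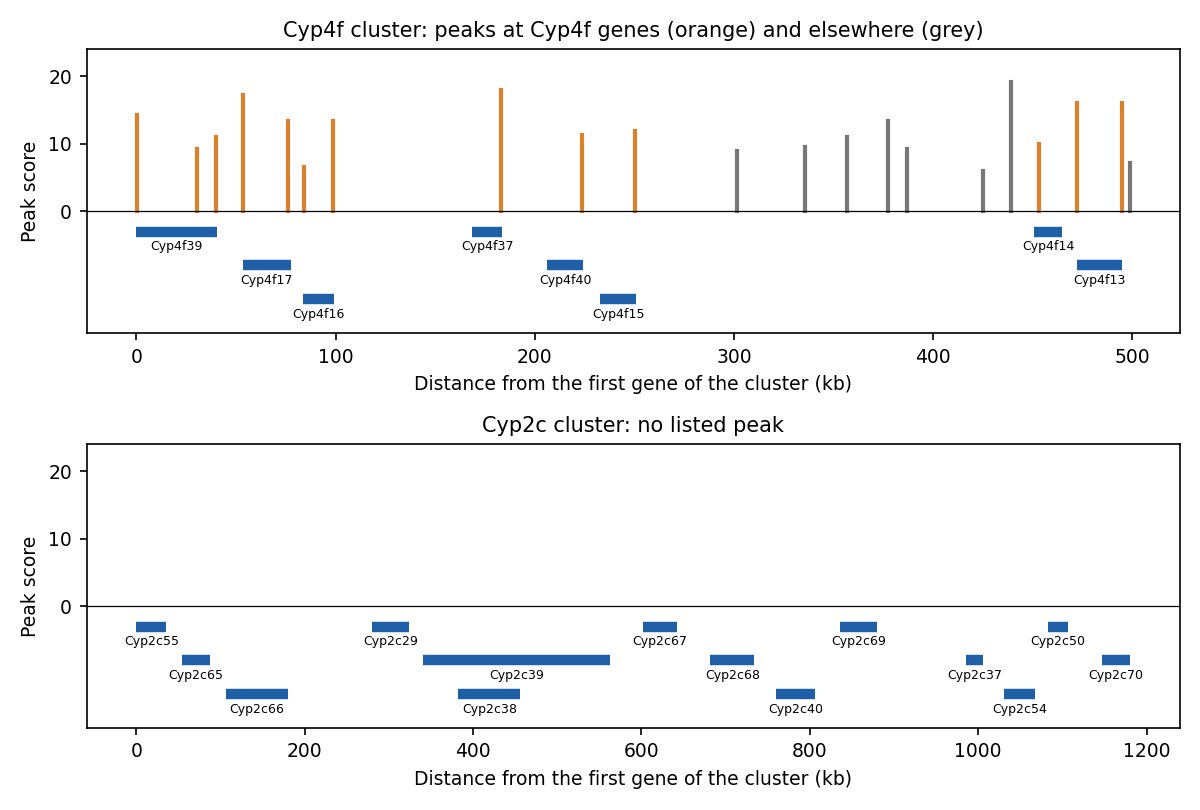
Maps of the Cyp4f cluster (top) and the Cyp2c cluster (bottom), with distance from the first gene in kb, genes as blue bars and each listed peak as a vertical line as high as its score (orange where it overlaps a Cyp4f gene, grey elsewhere). Peaks recur at the ends of the Cyp4f genes, and no peak stands in the Cyp2c cluster with its 14 genes.

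The other clusters of families 2, 3 and 4 held from 0 peaks per Mb (Cyp3a) to 6.44 per Mb (Cyp2j), against 8.1 over all chromosomes. Clusters were members within 500 kb of the next one. The cluster of Cyp3a, the main drug-clearing enzymes of the liver, held 6 genes over 0.770 Mb on chromosome 5 and no peak. The chromosome 7 cluster of the Cyp2a, Cyp2b, Cyp2f, Cyp2g, Cyp2s and Cyp2t genes held 13 genes over 1.36 Mb and 6 peaks (4.42 per Mb), with an end peak at 1 gene, Cyp2s1. Cyp2a12, Cyp2a22 and Cyp2a4 are among those without. In the chromosome 15 cluster 1 of 8 genes, Cyp2d22, had an end peak (13.7), and in the chromosome 4 cluster of Cyp4a, Cyp4b1 and Cyp4x1 it was 1 of 7. That gene was Cyp4x1, a brain-expressed P450 without a settled substrate, whose peak of 17.3 also lay at an end of its antisense gene Cyp4x1os. Of the Cyp2j genes, epoxygenases of arachidonic acid, 2 of 7 had an end peak and 2 more an inside peak.

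End peaks were listed at 14 of 70 clustered genes (20%, interval 11.4 to 31.3%) and at 10 of 22 members that stood alone (45.5%, interval 24.4 to 67.8%). The median score was 14.02 for clustered genes and 19.5 for single genes with an end peak. Within families 2, 3 and 4 the clustered count was 12 of 63, and 5 of 55 without Cyp4f, which was set apart for its high count. The single count was 4 of 8, with Cyp4f18 among the 4. The interval of the single 4 of 8 (15.7 to 84.3%) overlapped that of the clustered 12 of 63 (10.2 to 30.9%) and that of 5 of 55 (3.02 to 19.95%), as did those of all clustered and single members, and no test was made. The 61 members with no peak lay a median of 104 kb from the nearest one, and the 51 of families 2, 3 and 4 lay 123 kb and the 10 of the retinoid, sterol and other families 18.2 kb from it, against 82.5 kb for all protein-coding genes without a peak.

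The single genes of families 2 and 4 included the highest scores. Cyp2r1, which adds the first hydroxyl group to vitamin D, had a start peak of score 30.1 on chromosome 7 (114562116 to 114563978), ranked 178 in the list. Cyp2u1, which acts on long-chain fatty acids and is expressed in brain, had 22.7, and Cyp4v3, a fatty acid hydroxylase, had 22.4. The peak at Cyp2s1, an enzyme found mostly outside the liver, scored 18.5 at the start, with 10.1 at the far end and 14.3 inside. Cyp2s1 opens the chromosome 7 cluster, and its promoter held 17 CpG.

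Among the Cyp2j genes Cyp2j9, a brain-expressed member, had 15.01 at the start and Cyp2j13 had 10.7, in the narrowest of the end peaks (912 bp). The inside peak of Cyp2j6 scored 18.8 and lay 233 bp past a listed start, since the outermost annotated end of that gene is 10887 bp away. Cyp2j11 held an inside peak of 5.67, and Cyp2c23, a single member away from the Cyp2c cluster, held one of 8.1.

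The retinoid genes had peaks of low score. Cyp26a1, the retinoic acid hydroxylase induced by retinoic acid itself, had an end peak of 5.97 on chromosome 19 (37697564 to 37699581), ranked 19982 of the list, with its midpoint 764 bp past the start. This peak was the lowest of the 24 highest end peaks, and it also lay within 1 kb of an end of the annotated gene Gm32342. The promoter of Cyp26a1 held 26 CpG, above the median of 21 of all promoters with a start peak, and TATAAA began 29 bases past the listed start. Cyp26b1, which protects parts of the embryo from retinoic acid, had no end peak but a wide inside peak of 8.65 (2558 bp, chromosome 6, 84587134 to 84589691), 5398 bp past the start. Cyp26c1, the neighbour of Cyp26a1, had none, and its nearest peak lay 4.24 kb away.

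In the sterol and steroid group 5 of 14 genes had an end peak (35.7%, interval 12.8 to 64.9%). Cyp7b1, which hydroxylates oxysterols, had 20.6, and Cyp39a1, which acts on the hydroxycholesterol that brain exports, had 19.7 in a peak shared with an end of Slc25a27. Cyp27a1, a mitochondrial sterol hydroxylase, had 16.8. Cyp46a1, which makes the hydroxycholesterol by which neurons export cholesterol, had 10.7 at the start and 9.13 inside, with 31 CpG, the highest count of the Cyp promoters read. Cyp11a1, which cuts the cholesterol side chain to begin steroid synthesis, had 8.05 at an end and 14.02 inside.

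The other 9 genes of this group had no end peak. Cyp19a1, the aromatase that makes oestrogens, held 2 inside peaks of 9.55 and 6.56, with the lower-scoring one 1238 bp past a listed start. No peak was listed at the bile acid genes Cyp7a1 and Cyp8b1, at the vitamin D genes Cyp24a1 and Cyp27b1, or at Cyp11b1, Cyp11b2, Cyp17a1 and Cyp21a1 of the adrenal and gonadal hormones. Cyp21a1 stood in the second longest stretch without peaks, 7.25 Mb on chromosome 17, where none of 240 protein-coding genes had an end peak. Whether peaks of that stretch are missing from the list used here could not be told, so Cyp21a1 cannot be read as a gene without H2AZ. In the end-peak shares given here Cyp21a1 still counts as without a peak. The 240 genes likewise count in the end-peak share of all protein-coding genes.

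Of the remaining 4 genes 2 had an end peak. Cyp20a1, an orphan P450 conserved among vertebrates, had 19.4. Cyp1b1, which acts on oestrogens and other compounds outside the liver, had a pair of peaks of 14.6 and 12.5 around its start. Cyp1a1, the classic target of the Ah receptor, held an inside peak of 11.4 with its midpoint at -1027 bp from a listed start, upstream of it, and its liver neighbour Cyp1a2 had none.

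Genes that act together with P450 enzymes were counted in the same way, from lists chosen by function and read against 55.4%. The lists are short. The intervals of electron partners (34.9 to 96.8%), retinoid handling genes (30.8 to 89.1%) and regulators (27.2 to 72.8%) held that value. So did those of other detoxification genes (5.49 to 57.2%) and P450 genes with other symbols (0.840 to 90.6%). That of cholesterol synthesis genes (55.5 to 99.7%) lay just above it. Of the electron partners 6 of 8 had an end peak, led by Fdx1, the ferredoxin of mitochondrial P450s (27.9), Pgrmc2 (25.4), Cyb5b (19.1) and Fdxr (18.3). Por, the reductase of all microsomal P450s, and Cyb5r3 held inside peaks only (16.4 and 14.4). Cholesterol synthesis genes had one in 9 of 10 cases, among them Lss (21.8), Mvk (17.3) and Dhcr7 (14.9), and Fdft1 held an inside peak of 7.46. The peaks of Fdxr, Mvk and Dhcr7 were also at ends of Fads6, Mmab and Nadsyn1. Retinoid handling genes had one in 7 of 11, led by Lrat (16.1), Rbp4 (14.1), Aldh1a3 (14.02) and Dhrs3 (11.9). Aldh1a1 held an inside peak (7.76), and Rdh10 had none.

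Regulators of P450 genes had an end peak in 10 of 20 cases and an inside peak alone in 6, with Ahr (25.4), Rxra (23.0), Nr1h3 (19.9, shared with Madd) and Rarg (18.2) highest. Nr0b2 had no peak and Hnf4a an inside peak of 14.6. The 10 without an end peak include Rxrb, which lies in the same stretch without peaks as Cyp21a1. Other detoxification genes of the liver had one in 3 of 12, namely Gstm1 (12.2), Fmo5 (9.55, shared with Chd1l) and Aox1 (6.77), and Ces1d and Fmo1 had none. Of 3 P450 genes with other symbols, Cyp51, a step of cholesterol synthesis, had an end peak of 10.1, and Tbxas1 and Ptgis of prostanoid synthesis held inside peaks of 25.7 and 14.02.

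For the labelled cell type, 7 of 8 neural progenitor markers had an end peak, with Hes1 at 21.8, Vim at 12.95, Hes5 at 11.9 and Nes at 10.4, and Sox2 had none. Of 8 liver markers 3 had an end peak (interval 8.52 to 75.5%), Apoa1 (15.2), Afp (11.8) and Tat (8.05), and Alb, Apob and Cps1 had none. Both intervals held the 55.4% of all protein-coding genes. Among genes with an end peak the median score was 10.4 for the progenitor markers and 11.8 for the liver markers, against 17.1 over all protein-coding genes. A peak does not measure expression, so these counts do not show which cells were present. The peaks of Hes1, Hes5 and Tat lay outside the genes, and that of Hes5 was also at an end of Pank4.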

How the data were processed

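One list of H2AZ peaks from embryonic brain was used, and the input had no list of its own. Each line gives positions, a peak name and a score that the authors deposited, without saying what it measures. The names carry MACS, per the deposited file; the sources used here do not state its settings. The submitters' processing notes list CASAVA 1.4, Bowtie2 2, FastQC and mm9. The list held 21592 peaks whose numbers reach 32646 (66.1%). Depth is unknown.

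Positions were read as GRCm38, not mm9: 51.6% of peaks were within 1 kb of an end of a RefSeq GRCm38.p6 protein-coding gene, against 8.32 and 8.26% after shifts of 1000000 bp up and down. The 46 peaks numbered after the Y chromosome stood out of order and were left out, as were 348 genes on other sequences. A peak counted with 1 bp in a window. Motifs and runs of 36 bases were searched in 1 promoter per gene, the most upstream; starts used all listed ones. Protein sequences were not used here.

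The members and lists were chosen with earlier results of these data known. Named were all members of the small groups, and in families 2, 3 and 4 those with a peak and the first 3 without; of each list the 4 highest and the first 3 without. A few genes of the lists are not reported here. Other genes were named after their values were seen. Alternatives changed windows, overlap, score, genes and clusters. No test was made. Python 3.11.15, numpy 2.4.6, pandas 2.3.3, scipy 1.17.1 and matplotlib 3.10.9 were used. On simulated peaks, 200 of 200 genes were found, and 0 of 21774 calls differed from a direct comparison.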

Additional observations from a re-analysis of the deposited data

How the results depend on the processing

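Of 47 values under alternatives, 45 kept their direction, with shares inside the interval of the value reported. The exceptions follow. With the listed start in place of either end, the retinoid, sterol and other families had a peak at 8 of 13 genes (61.5%, interval 31.6 to 86.1%). That is above the 55.3% of all genes, whereas by end peaks they were below. Both intervals, by start and by end peaks, held the value of all genes. The 8 members of these families without a listed start were left out, and of them only Cyp7b1 and Cyp39a1 had a peak. With peaks at or above the median score, 21.7% of Cyp genes had any peak, against 48.2% of all genes, fewer peaks being counted. Windows of 5 kb gave an end peak to 6 more members, among them Cyp26b1, Cyp26c1 and Cyp27b1, and raised the retinoid, sterol and other families to 57.1%, against 60.8% of all genes. The check of promoters without shared runs was chosen after seeing the data. No paired analysis was possible because there was 1 library per group. With unknown depth and a list that is a part of a longer one, a missing peak is not shown to be absent H2AZ.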

Other observations

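The Cyp4f cluster also holds genes of another kind. Between Cyp4f15 and Cyp4f14 stand 4 zinc finger genes, and each had an end peak: Zfp870 scored 19.1, Zfp799 13.4, Zfp811 11.04 and Zfp871 9.46. A further peak of 8.95 overlapped no annotated gene, and one of 7.16 overlapped the pseudogene Cyp4f41-ps, just past the end of the cluster. The protein-coding paralogues left out by the form of their symbols, Cyp4a12a, Cyp4a12b and Cyp4a30b in the Cyp4a cluster and Cyp3a41a and Cyp3a41b in the Cyp3a cluster, had no end peak.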
